A study of Danio rerio with 6 samples.

Results

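The genes described here encode the sarcomere, the contractile unit of striated muscle, and were read in whole zebrafish larvae at 5 days post-fertilization (dpf). They were taken by gene symbol: the troponins, tropomyosins, myosin light chains, fast and slow skeletal myosin heavy chains, myosin binding proteins C, myomesins, myozenins, sarcomeric α-actinins, titins, nebulin, tropomodulins and leiomodins, plus *acta1a*, *acta1b*, *actc1b*, *ldb3a*, *ldb3b*, *tcap*, *desma* and *ppp1r27b*, while *myl7*, *tnnt2a*, *tnni1b* and the *mylip* and *mylk* genes were left out. The symbols did not match *tpma*, the most abundant tropomyosin, or the myosin heavy chain genes *myha*, *myhb* and *myhc4*, which were read apart. The set held 82 of the 27335 genes in the deposited table. By role, 24 belonged to the thick filament, 37 to the thin filament, 12 to the Z disc, 7 to the M band and titin, and 2 to neither.

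In a sarcomere, myosin thick filaments slide past actin thin filaments, and calcium released onto the troponin and tropomyosin of the thin filament switches the sliding on. The thin filaments are anchored in Z discs by α-actinin, the thick filaments are cross-linked in the M band by myomesins, and titin spans from one to the other and holds the myosin in register. Fast and slow fibers build the same lattice from different paralogs, and in zebrafish larvae the fast fibers make up the bulk of the trunk muscle while slow fibers lie at its surface.

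MZ *tafazzin* mutant and wild-type larvae were compared, with 3 pools of 25 larvae in each, all at 5 dpf. Mutant larvae were maternal zygotic (MZ) *taz* E3/E3, homozygous for a CRISPR/Cas9 deletion of 1 base pair in exon 3 of *tafazzin* that shifts the reading frame, and born to homozygous mutant parents so that no intact maternal transcript was supplied. *tafazzin* encodes a mitochondrial enzyme that remodels cardiolipin, and its loss in humans causes Barth syndrome, in which skeletal muscle is weak. Control larvae were *taz* +/+, from an incross of wild-type siblings. The methods speak of a single clutch and the results of a separate incross for each genotype, so that parents and genotype may go together. The mutants carry 1 allele of 1 line, and loss of the protein could not be shown with the antibodies the study tried. Each library holds RNA of whole larvae, so a lower value can mean fewer muscle cells as well as less RNA in each, and these cannot be told apart.

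The authors deposited an FPKM value for each gene and pool, a fragment count divided by exon length and by the library's mapped fragments. Pools are called here by the number in their deposited column, 0 to 2, and values are listed in that order. Relative to mutant pool 0, the other 5 pools held an estimated 0.84 to 1.29 times as many fragments. This was inferred from FPKM ratios of genes averaging under 0.5 FPKM, and absolute depth is not known. As a check of the labels, *tafazzin* was read at 12.3, 12.04 and 8.53 FPKM in wild-type pools 0, 1 and 2, and at 6.09, 4.58 and 3.84 FPKM in mutant pools (log2 fold change −1.04, limma adjusted p = 0.0468). Wild-type pool 2 was thus the wild-type pool nearest to the mutants for this gene, and results that change without it are given both ways. The mutant mean of *tafazzin* was 44.1% of the wild-type mean, a larger remainder than the study states for the mutant transcript. The labels do not name the parents of a pool, and p-values therefore measure the spread between these 6 libraries.

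The sarcomere genes were abundant in the larva. Together they took 4.491%, 4.798% and 4.062% of all FPKM in wild-type pools 0, 1 and 2, and 4.306%, 4.503% and 4.292% in mutant pools. The shares of both genotypes overlapped. Of the 82 genes, 24 averaged at least 100 FPKM across pools and 64 at least 5 FPKM, and the 5 most abundant genes held 70.4% of the set's FPKM. The actin gene *actc1b*, the main skeletal actin of the larva, was the most abundant at 8015, 8251 and 6954 FPKM in wild-type and 7054, 7416 and 7110 FPKM in mutant pools. At the other end, the slow myosin heavy chain gene *smyhc3*, the leiomodin gene *lmod2a* and the slow troponin I gene *tnni1a* had means under 0.5 FPKM and were not tested, which left 79 genes.

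**Figure D1:**
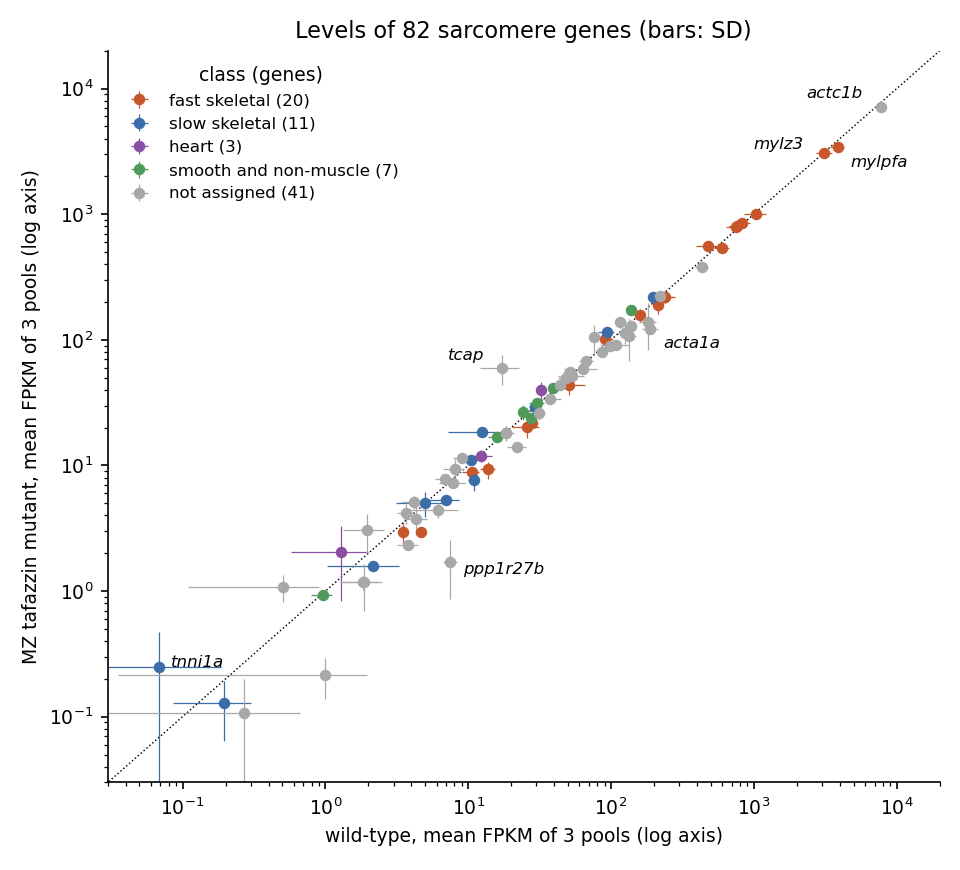
Mean FPKM of the 82 sarcomere genes in 3 wild-type pools (horizontal, log axis) and 3 MZ *tafazzin* mutant pools (vertical, log axis), coloured by fiber class, with bars of 1 SD and a dotted line of equality. Most genes lie on the line over the whole range of levels, while *tcap* lies above it and *ppp1r27b* and *acta1a* below it.

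The symbols also took in genes whose main site is not skeletal muscle. The light chain genes *myl6*, *myl9a*, *myl9b*, *myl12.1* and *myl12.2*, the tropomyosin gene *tpm4b* and the leiomodin gene *lmod1b* belong to smooth muscle and non-muscle cells, and *tnnc1a*, *mybpc3* and *tpm4a* to the heart. *tnni3k* encodes a kinase, not a troponin. These genes were kept, since the set was defined by symbol, and they weigh little in its summed FPKM. In counts of genes and in medians each weighs as much as any other. *myl12.1* and *myl12.2* are among the genes that did not overlap between genotypes. The 7 smooth and non-muscle genes together took 1.09% to 1.35% of the set's FPKM in wild-type and 1.34% to 1.48% in mutant pools, and the 3 heart genes 0.194% to 0.202% and 0.207% to 0.263%. The 20 fast skeletal genes alone took 52.2% to 54.9% and 53.7% to 54.5%.

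Between genotypes, the bulk of the sarcomere genes did not pass the test. With limma on log2(FPKM + 1) and Benjamini-Hochberg adjustment over all 21843 genes tested, 1 of the 79 genes was higher in mutants at an adjusted p under 0.05, where 0.696% of all genes were, and 2 were lower, where 0.215% of all genes were. The gene that rose was *tcap*, and those that fell were *ppp1r27b* and *acta1a*. All 3 were among the 8 genes added by name, with earlier results of these data known. In this fit no gene taken by a symbol pattern passed with all pools, while at a filter of 5 FPKM *myl4* did. The counts beside the shares of all genes thus describe chosen genes and are no test of the set. Single pools decide these shares of all genes: they were 1.46% higher and 0.476% lower without wild-type pool 2 (318 and 104 genes), and 0.0504% and 0.0183% without wild-type pool 0 (11 and 4 genes). Of the sarcomere genes, 1 was higher and 3 lower without wild-type pool 2, with *myl4* added, and none passed without wild-type pool 0. The other 76 did not pass with all pools, which does not show that their levels were equal. By unadjusted p under 0.05, 6 genes lay higher and 8 lower, beside 9.88% and 6.4% of all genes. All mutant pools lay above all wild-type pools for 5 genes and below them for 13, beside 11.9% and 10.5% of all genes. The median log2 fold change of the 79 genes was −0.03, beside 0.00246 over all genes, and it moved to −0.13 without wild-type pool 2 and to 0.05 without wild-type pool 1. The log2 fold change was above 0 for 40.5% of the 79, beside 50.4% of all genes. For 52 genes (65.8%) the log2 fold change was smaller than 0.25 in either direction, beside 66.7% of all genes.

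**Figure D2:**
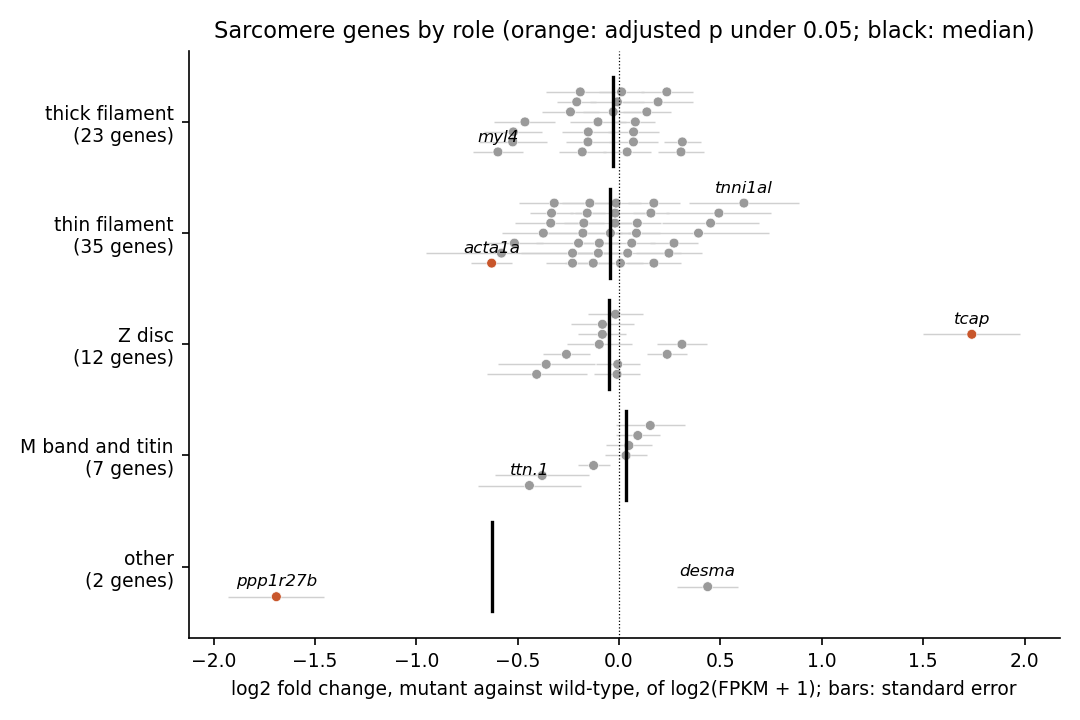
Log2 fold change of log2(FPKM + 1), mutant against wild-type, for the 79 tested sarcomere genes by role (horizontal axis, bars of 1 standard error, vertical black line the median of the role). Orange points had an adjusted p under 0.05 from limma: *tcap* at 1.74, *acta1a* at −0.63 and *ppp1r27b* at −1.69.

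Of the thick filament genes, 23 were tested and none passed. By unadjusted p under 0.05 from limma, 2 were higher and 4 lower, beside 9.88% and 6.4% of all genes. The gene nearest to the threshold was *myl4*, an essential light chain that in mammals belongs to embryonic muscle and the atrium (chromosome 3 of GRCz11, 22223239 to 22228602). It was read at 22.3, 25.5 and 18.5 FPKM in wild-type and 13.98, 14.69 and 13.80 FPKM in mutant pools. Every mutant pool lay below every wild-type pool, and the log2 fold change was −0.60 ± 0.12 (standard error; limma adjusted p = 0.0651). It passed if wild-type pool 2 was dropped (adjusted p = 0.0278) and when the table was restricted to genes that averaged at least 5 FPKM (adjusted p = 0.0469). The most abundant thick filament gene was *mylpfa*, the fast regulatory light chain, at 3703, 4338 and 3505 FPKM in wild-type and 3410, 3502 and 3439 FPKM in mutant pools. Its genotypes just did not overlap, but the log2 fold change of −0.15 was close to its standard error of 0.13 and its sign turned with quantile normalization (0.03).

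Myosin binding protein C, which brackets the myosin heads and slows cross-bridge cycling, is encoded by several genes. The fast form *mybpc2b*, which shares its locus in the deposited table with another gene, was at 14.6, 14.7 and 11.8 FPKM in wild-type and 10, 10.2 and 7.63 FPKM in mutant pools (log2 fold change −0.52, limma adjusted p = 0.126). The slow form *mybpc1* was at 11.7, 11.3 and 9.79 FPKM and 8.73, 8.34 and 6.09 FPKM (log2 fold change −0.46, adjusted p = 0.179). Neither overlapped between genotypes and neither passed. The second fast form, *mybpc2a*, overlapped between genotypes at 3.25 to 3.80 FPKM in wild-type and 2.49 to 3.62 FPKM in mutants.

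No myosin motor gene passed. Fast heavy chain gene *myhz1.1* was at 696, 882 and 726 FPKM in wild-type and 723, 899 and 795 FPKM in mutant pools, and *myhz1.2* and *myhz2* overlapped between genotypes as well. These 3 genes lie on chromosome 5 and are close copies, so reads may be split among them. The slow heavy chain gene *smyhc1* was at 80.6, 104 and 94.4 FPKM in wild-type and 102, 119 and 124 FPKM in mutant pools. It lay higher in mutants on average, with 1 wild-type pool inside the mutant range (log2 fold change 0.31, limma adjusted p = 0.237). The non-muscle regulatory light chain gene *myl12.1* was at 126, 145 and 145 FPKM against 167, 164 and 184 FPKM, with no overlap and again without passing (log2 fold change 0.31, adjusted p = 0.142).

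In the thin filament 35 genes were tested. By limma adjusted p under 0.05 *acta1a* was lower and none was higher, beside 0.215% and 0.696% of all genes. By unadjusted p under 0.05, 3 were lower and none higher, beside 6.4% and 9.88% of all genes. *acta1a* encodes a skeletal α-actin (chromosome 1, 53945958 to 53953532). Its level was 185, 215 and 167 FPKM in wild-type and 118, 126 and 119 FPKM in mutant pools. The mutant pools were close to each other and all below the wild-type pools, at 64.2% of the wild-type mean (log2 fold change −0.63 ± 0.10 as standard error, limma adjusted p = 0.0345). The call rested on having all pools: it held without wild-type pool 2 (adjusted p = 0.0204) and was lost without wild-type pool 0 or 1 (0.131 and 0.0956) or without mutant pool 0, 1 or 2 (0.108, 0.0998 and 0.122).

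The other skeletal actin genes did not pass. *acta1b* was at 386, 480 and 428 FPKM in wild-type and 366, 401 and 376 FPKM in mutant pools (log2 fold change −0.17, limma adjusted p = 0.431). *actc1b*, whose values stand above, had a log2 fold change of −0.10 (adjusted p = 0.789). Because FPKM is scaled to length, levels of the 3 actin genes can be added. They are paralogs, so reads may be split among them and their separate shares are uncertain. *acta1a* made up 2.155%, 2.399% and 2.209% of their sum in wild-type and 1.56%, 1.59% and 1.57% in mutant pools, and *actc1b* 92.1% to 93.4% and 93.4% to 93.6%. The actin that fell was thus a minor part of the total.

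Troponin and tropomyosin, the calcium switch of the thin filament, gave 24 of the tested genes and none passed, with *tpma* outside the set. The most abundant troponin genes of the fast fiber overlapped between genotypes. Troponin T gene *tnnt3b* was at 894 to 1237 FPKM in wild-type and 960 to 1021 FPKM in mutants. Troponin I gene *tnni2a.4* was at 733 to 959 and 853 to 860 FPKM, and troponin C gene *tnnc2* at 678 to 881 and 749 to 823 FPKM. Of the minor fast troponin I genes, *tnni2a.2*, *tnni2a.3* and *tnni2b.1* lay lower in every mutant pool without passing, where 10.5% of all genes lay lower. The genotypes overlapped for *tnni2a.1* and for *tnni2b.2*, which was higher in mutants on average (log2 fold change 0.17). *tnni2b.1* was at 30.4, 25.5 and 27.5 FPKM in wild-type and 19.7, 23.8 and 22.1 FPKM in mutant pools (limma adjusted p = 0.177), and *tnni2a.3* at 4.95, 4.66 and 4.31 FPKM and 2.89, 3.11 and 2.82 FPKM (adjusted p = 0.126). The *tnni2a* genes lie on chromosome 25 and resemble each other, so their separate values are uncertain.

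The slow troponin I gene *tnni1al* had the largest positive log2 fold change of the thin filament. It was at 6.52, 16.6 and 14.3 FPKM in wild-type and 18.9, 17.5 and 18.8 FPKM in mutant pools. Wild-type pool 0 stood far below the rest and carried most of the difference (log2 fold change 0.62, limma adjusted p = 0.309), which was 0.24 over the other pools. Slow troponin C gene *tnnc1b* was nearly the same in both genotypes, at 26.9 to 31.7 FPKM and 25.5 to 31.9 FPKM. Tropomyosin gene *tpm3*, the slow form, was at 191 to 205 FPKM in wild-type and 204 to 241 FPKM in mutants and shares its locus with another gene. Tropomodulins and leiomodins, which cap or seed the slow-growing end of the thin filament, had no gene that passed among the 6 tested.

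The Z disc held the largest rise. *tcap* encodes telethonin, which ties together the ends of a pair of titin molecules at the Z disc (chromosome 3, 21240592 to 21242461). It was read at 11.7, 18.2 and 22.2 FPKM in wild-type and 56.3, 45.9 and 77.0 FPKM in mutant pools. The lowest mutant pool was above the highest wild-type pool, and the mean rose 3.45-fold, from 17.3 ± 5.30 to 59.8 ± 15.8 FPKM (SD, n = 3 pools per genotype), a log2 fold change of 1.74 ± 0.24 (standard error; limma adjusted p = 0.0204). The direction was the same with any pool left out, at a log2 fold change of 1.5 to 1.93. The call held without wild-type pool 2 or mutant pool 1 (adjusted p = 0.0196 and 0.0422) and was lost when wild-type pool 0 or 1 (0.0664 and 0.0804) or mutant pool 0 or 2 (0.081 and 0.0745) was left out. An exact permutation test over 3 against 3 pools cannot go below p = 0.1. This value was reached by all 18 sarcomere genes without overlap between genotypes, among them *tcap*, *ppp1r27b* and *acta1a*. Of all genes, 11.9% lay above and 10.5% below wild-type in every mutant pool.

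None of the other 11 Z disc genes passed, and 6 lay within 0.1 of no change on the log2 scale. *actn3a*, the most abundant and a fast-fiber α-actinin, was at 222, 276 and 205 FPKM in wild-type and 216, 237 and 206 FPKM in mutant pools (log2 fold change −0.08, and 0.04 without wild-type pool 1). *actn2b*, an α-actinin, was at 10.6, 8.18 and 8.58 FPKM and 11.8, 11.9 and 10.8 FPKM (log2 fold change 0.31, limma adjusted p = 0.266). The 2 *ldb3* genes encode Cypher, which couples α-actinin to signalling proteins. *ldb3b* was at 109, 128 and 112 FPKM in wild-type and 124, 140 and 148 FPKM in mutant pools (adjusted p = 0.28), and *ldb3a* at 46.5, 47.8 and 37.6 FPKM and 45.6, 45.8 and 39.2 FPKM, with no set direction. The 5 myozenin genes, which bind α-actinin and calcineurin, all overlapped between genotypes.

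The M band and titin group had no gene that passed and none by unadjusted p under 0.05 from limma. Titin gene *ttn.1* was at 192, 197 and 152 FPKM in wild-type and 133, 198 and 86.8 FPKM in mutant pools, and its neighbour *ttn.2* at 143, 144 and 117 FPKM and 101, 151 and 70.8 FPKM. Mutant pool 1 matched the wild-type pools while mutant pool 2 was lowest, so the log2 fold change of *ttn.1*, −0.44 ± 0.25 (standard error; limma adjusted p = 0.428), ran from −0.73 without mutant pool 1 to −0.14 without mutant pool 2. Nebulin, encoded by *neb*, is the giant ruler protein along the thin filament. It was at 124, 140 and 110 FPKM and at 110, 135 and 95.3 FPKM, so that *ttn.1*, *ttn.2* and *neb* ranked the pools alike, pool 1 highest and pool 2 lowest in each genotype. All 3 giant genes lie on chromosome 9, but the ranking was not particular to it. *actn3a* on chromosome 21 and the calcium release channel gene *ryr3* on chromosome 20 ranked the pools in the same way. Of the myomesin genes, *myom1a* was at 44.6 to 54.7 FPKM in wild-type and 44.1 to 55.1 FPKM in mutants, and only *myom2b* did not overlap, at 82.7 to 92.4 and 76.9 to 81.5 FPKM (adjusted p = 0.473).

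The 2 genes outside the filaments and bands went opposite ways. *ppp1r27b* encodes a regulatory subunit of protein phosphatase 1 (chromosome 6, 18197801 to 18199062). It was at 8.43, 7.05 and 6.94 FPKM in wild-type and 1.79, 2.51 and 0.828 FPKM in mutant pools, with a wide gap between genotypes (log2 fold change −1.69 ± 0.24 as standard error, limma adjusted p = 0.0217). It no longer passed without wild-type pool 0 (adjusted p = 0.11), wild-type pool 1 (0.0868) or mutant pool 0 (0.081) and held without wild-type pool 2 or mutant pool 1 or 2 (0.0357, 0.0336 and 0.0367). *desma* encodes desmin, the intermediate filament that links neighbouring Z discs. It was at 77.3, 78.3 and 72.3 FPKM in wild-type and 88.8, 91.6 and 135 FPKM in mutant pools, all above wild-type but with mutant pool 2 far from the others (log2 fold change 0.44, adjusted p = 0.199, and 0.25 without mutant pool 2, adjusted p = 0.329).

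**Figure D3:**
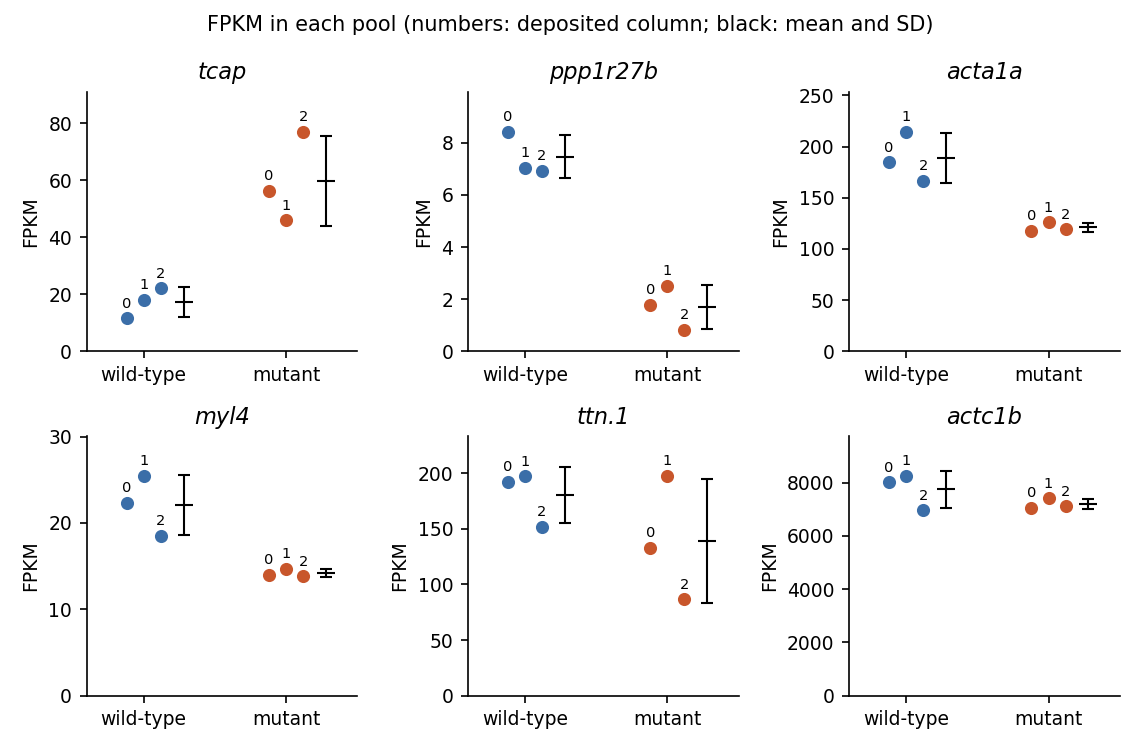
FPKM in each pool (vertical, linear axes from 0) for 6 sarcomere genes, wild-type in blue and mutant in orange, with the deposited column number above each point and the mean with 1 SD in black. *tcap*, *ppp1r27b*, *acta1a* and *myl4* do not overlap between genotypes, while mutant pool 1 of *ttn.1* lies at 198 FPKM among the wild-type pools and *actc1b* overlaps.

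Sorted by fiber class, none of the 20 fast skeletal genes and none of the 9 tested of 11 slow skeletal genes passed. By unadjusted p under 0.05 from limma, 3 fast genes were lower, none higher, and 1 slow gene lay each way. The shares over all genes were 9.88% higher and 6.4% lower. A further 41 genes were assigned to no class. They held 42.3% to 45.0% of the set's FPKM in wild-type and 41.7% to 42.9% in mutant pools. Among them are *actc1b* and the 3 genes that passed, *tcap*, *ppp1r27b* and *acta1a*. The median log2 fold change was −0.13 for the fast genes and 0.04 for the slow genes, beside 0.00246 over all genes. For the fast genes the median stayed below 0 under every alternative run, from −0.21 without wild-type pool 2 to −0.00807 without wild-type pool 1, and for the slow genes it turned to −0.01 without mutant pool 2. Summed over genes, slow transcripts made up 2.79%, 2.69% and 3.17% of slow and fast FPKM in wild-type pools 0, 1 and 2, and 3.17%, 3.27% and 3.52% in mutant pools. The highest wild-type share, in pool 2, reached the lowest mutant share. Most of the slow sum was *tpm3*, which shares its locus with another gene. It held 191 to 205 of 345 to 393 FPKM in wild-type and 204 to 241 of 382 to 446 FPKM in mutant pools. The 2 classes are not matched in content. The fast sum holds the light chain genes *mylpfa*, *mylpfb*, *mylz3* and *myl1* and no tropomyosin gene. The slow sum holds a tropomyosin gene and no light chain gene. These sums are thus a description, not a ratio of slow to fast fibers, and carry no test.

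Shares within paralog groups did not overlap between genotypes in some groups and overlapped in others. The minor fast regulatory light chain gene *mylpfb* was at 396, 562 and 470 FPKM in wild-type and 532, 541 and 594 FPKM in mutant pools, an overlap between genotypes. Of the FPKM of *mylpfa* and *mylpfb* together it made up 9.66%, 11.5% and 11.8% in wild-type and 13.5%, 13.4% and 14.7% in mutant pools. Of the fast heavy chain sum, *myhz1.1* made up 61.8%, 62.9% and 64.3% and then 65.8%, 65.8% and 67.5%. The shares of both genes were higher in each mutant pool than in each wild-type pool, with no test of the difference. So was that of *mybpc2a* in the *mybpc2* pair, at 18.8% to 21.5% in wild-type and 21.6% to 26.1% in mutant pools. Lower in each mutant pool were the shares of *myhz1.2* and *myhz2*, of *tnni2a.3* among fast troponin I genes and of *acta1a* among the actins. The shares given were chosen after their values were seen. The shares overlapped in the titin pair, where *ttn.1* made up 56.6% to 57.9% and 55.1% to 56.8%, and in the *tnnt3*, *actn3*, *ldb3* and slow heavy chain groups, as did that of *tnni2a.4* among fast troponin I genes.

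The sarcomere genes also varied together between pools of 1 genotype. Among the 64 genes averaging at least 5 FPKM, wild-type pool 1 was the highest wild-type pool for 49 (76.6%), beside 36.2% of all genes of that level, and wild-type pool 2 the lowest for 43 (67.2%), beside 31.1%. Their median distance from the wild-type mean on the log2(FPKM + 1) scale was −0.04, 0.15 and −0.13 in wild-type pools 0, 1 and 2. In the mutant pools it was −0.06, 0.04 and 0.01. The wild-type pools were thus more spread than the mutant pools: the SD was larger in wild-type for 45 of the 64 genes (70.3%), beside 54.7% of all genes of that level, and the median SD on the log2 scale was 0.177 in wild-type and 0.123 in mutants, beside 0.146 and 0.134. The genes share their libraries, so these are counts of how 6 libraries differed and not independent measurements. What sets the wild-type pools apart in muscle transcripts was not tested.

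**Figure D4:**
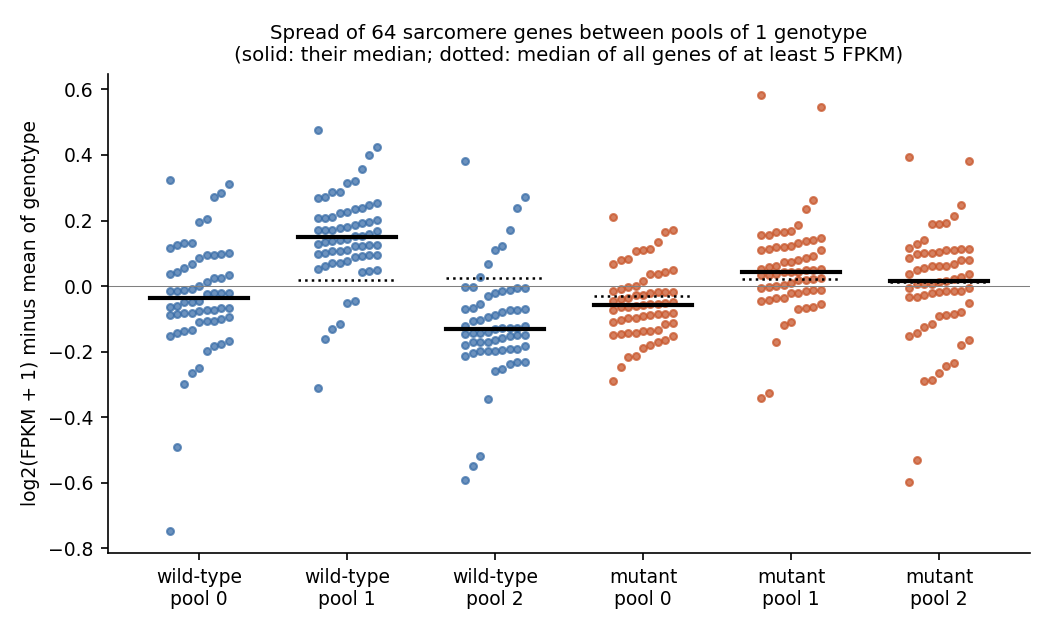
Distance of each of 64 sarcomere genes from the mean of its genotype (vertical, log2(FPKM + 1) scale) in the 6 pools, with the solid bar their median and the dotted bar the median of all genes of at least 5 FPKM. The sarcomere genes sit high in wild-type pool 1 (median 0.15) and low in wild-type pool 2 (median −0.13), and the mutant pools lie closer to 0.

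The genes of the set are spread over 23 chromosomes, with *actn2a* on a scaffold that is not placed. On chromosome 23, which carries *tafazzin*, lie *myl9a*, *lmod3*, *tnnc1a*, *tnnc1b*, *tnnc2* and *tnni1a*, and none of the 5 of these that were tested passed. The shared locus of *actn3b*, *mybpc2b*, *smyhc3* and *tpm3* with other genes makes the values of these 4 less certain.

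Of the lists around the sarcomere, chosen with earlier results known, that of muscle energy supply and calcium buffering held the most that passed. Of 27 tested, 3 were higher by limma and none lower, with 12 higher and none lower by unadjusted p under 0.05, and the median log2 fold change was 0.24. For this and the lists that follow, the shares over all genes are 0.696% higher and 0.215% lower by adjusted p, and 9.88% and 6.4% by unadjusted p. *pygma*, muscle glycogen phosphorylase, was at 22.2, 24.1 and 24.6 FPKM in wild-type and 47.6, 53.6 and 61.6 FPKM in mutant pools (log2 fold change 1.16, adjusted p = 0.00507), and it passed with any 1 pool left out. The glycolytic genes *aldoaa*, an aldolase, and *pkmb*, a pyruvate kinase, were the others. *aldoaa* was at 148, 141 and 162 FPKM and 256, 283 and 417 FPKM (log2 fold change 1.04, adjusted p = 0.032), and *pkmb* at 176, 201 and 165 FPKM and 252, 278 and 338 FPKM (log2 fold change 0.67, adjusted p = 0.0497). With pool 0 or 1 of either genotype left out, *pygma* alone passed, and without wild-type pool 2 or mutant pool 2 *aldoaa* passed as well (with *ckmt2a* and *phkg1a* in the first case), while *pkmb* passed in none of the 6. These enzymes are also made outside muscle, and whole larvae do not show where the transcript came from. The calcium buffer genes of the list, the parvalbumins, did not pass by adjusted or unadjusted p from limma. Their log2 fold changes were −0.12 for *pvalb1*, −0.12 for *pvalb2*, 0.44 for *pvalb3* and 0.12 for *pvalb4*.

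Among neighbours of the Z disc and M band, 30 were tested and *ankrd1b* alone passed, with 5 higher and 1 lower by unadjusted p under 0.05 from limma. *ankrd1b* encodes an ankyrin repeat protein whose mammalian counterpart binds titin. It was at 3.65, 4.88 and 5.63 FPKM in wild-type and 15.4, 16.4 and 23.8 FPKM in mutant pools, far above wild-type in each (log2 fold change 1.76, adjusted p = 0.00922), and missed the threshold without wild-type pool 0 (0.0534). It shares its locus with another gene. *actn1*, a non-muscle α-actinin, was at 14.6, 13.1 and 13.5 FPKM and 18.7, 19.9 and 26.2 FPKM (adjusted p = 0.0751).

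Of 31 genes of sarcomere assembly, chaperones and turnover, *klhl31* was lower and none higher by limma, with 2 lower and 9 higher by unadjusted p under 0.05, and the median log2 fold change was 0.13. *klhl31*, a Kelch-like gene of skeletal muscle, was at 72.6, 78.7 and 63.5 FPKM in wild-type and 44.3, 47.5 and 34.8 FPKM in mutant pools (log2 fold change −0.76, adjusted p = 0.0405). It held without wild-type pool 2 (0.0357) and was lost without any other pool, at 0.077 without mutant pool 1 to 0.161 without wild-type pool 0. Without wild-type pool 2, the chaperone genes *bag3* and *hsp90aa1.2* passed as higher. The small heat shock protein gene *hspb1* was at 18.5, 18.6 and 18.1 FPKM and 23.3, 24.3 and 30.8 FPKM (adjusted p = 0.0967).

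The machinery that drives the sarcomere and ties it to the membrane held no gene that passed. For excitation-contraction coupling 32 genes were tested, with 2 higher and 3 lower by unadjusted p under 0.05 from limma, led by *ryr3*, a calcium release channel that shares its locus (48.5 to 37.3 FPKM on average, adjusted p = 0.182), and *jph2*, a junctophilin (71.7 to 54.5 FPKM, adjusted p = 0.1996). For the costamere and dystrophin complex 32 were tested, with 1 higher and 2 lower, led by *itga7*, an integrin of the muscle surface (15.9 to 10.7 FPKM, adjusted p = 0.0836), and *lims2*, an adaptor of the integrin complex (9.23 to 4.61 FPKM, adjusted p = 0.105). For myogenic transcription factors and fusion 29 were tested, with none higher and 2 lower, *mkl1b*, a coactivator of serum response factor (20.4 to 17.0 FPKM, adjusted p = 0.225), and *tead1b*, a TEA domain factor (12.2 to 9.86 FPKM, adjusted p = 0.298). The median log2 fold changes of the 3 lists were −0.04, −0.01 and −0.05.

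A further 13 sarcomeric genes lay outside the symbols used, and none passed, with 1 higher and 2 lower by unadjusted p under 0.05 from limma. Myosin heavy chain genes *myhb* and *myha* came nearest, in opposite directions. *myhb* was at 28.1, 22.7 and 17.4 FPKM in wild-type and 11.9, 13.9 and 9.86 FPKM in mutant pools (log2 fold change −0.87, adjusted p = 0.0655), and *myha* at 3.72, 5.79 and 4.18 FPKM and 8.18, 10.1 and 7.87 FPKM (log2 fold change 0.81, adjusted p = 0.0673). The genotypes did not overlap for either gene. *tpma*, the most abundant tropomyosin, was at 1689, 2197 and 1610 FPKM and 1785, 1931 and 1865 FPKM.

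**Figure D5:**
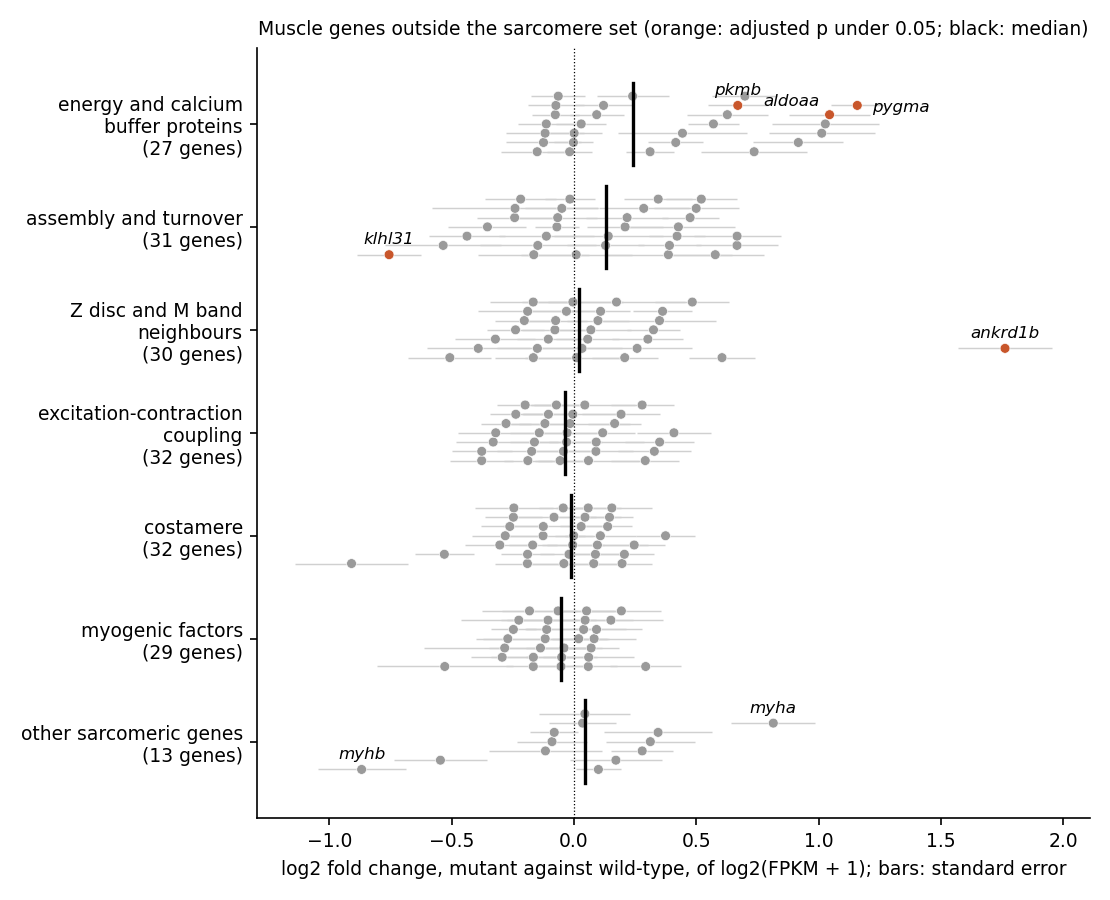
Log2 fold change of log2(FPKM + 1), mutant against wild-type, for tested genes of 7 muscle lists outside the sarcomere set (horizontal axis, bars of 1 standard error, vertical black line the median). Orange points had an adjusted p under 0.05 from limma: *pygma* (1.16), *aldoaa* (1.04), *pkmb* (0.67), *ankrd1b* (1.76) and *klhl31* (−0.76).

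Markers of other cell types were read beside the sarcomere genes, since all tissues share 1 library. The 9 heart markers summed to 169 to 206 FPKM in wild-type and 176 to 196 FPKM in mutant pools, and none passed by limma, with 1 higher by unadjusted p under 0.05. That marker was *nppa*, at 4.86, 5.01 and 2.59 FPKM in wild-type and 6.24, 5.91 and 9.33 FPKM in mutant pools (limma adjusted p = 0.21). Heart marker levels were small beside the skeletal genes. The sum mostly follows the actin gene *actc1a*, at 110 to 134 FPKM across pools. This gene also stands on the list of other sarcomeric genes. Atrial and ventricular light chain gene *myl7* was at 18.1 to 26.2 FPKM. Sums overlapped between genotypes for 7 neuronal markers (651 to 711 and 640 to 670 FPKM), 6 hepatocyte markers (970 to 1130 and 951 to 1019 FPKM), 6 lens markers (1704 to 2477 and 1724 to 2570 FPKM), 5 muscle precursor markers (32.8 to 40.6 and 28.8 to 33.7 FPKM) and 5 fibroblast and tendon markers (793 to 858 and 803 to 943 FPKM). None of these genes passed. By unadjusted p under 0.05, 2 hepatocyte markers were higher and 1 lower, and 1 fibroblast and tendon marker was higher. The sum of the 6 smooth muscle markers was lower in every mutant pool, at 122 to 129 and 108 to 116 FPKM, with none past the threshold and 1 lower by unadjusted p. Of these markers *tagln*, *acta2* and *desmb* lay lower in every mutant pool, *cnn1b* lay higher in every mutant pool, and *mylka* and *myh11a* overlapped. The 5 epidermal markers summed to 4078 to 5432 FPKM in wild-type and 2951 to 3712 FPKM in mutant pools, with *cyt1* lower (adjusted p = 0.0361), a call held without wild-type pool 2 and lost without any other pool. By unadjusted p under 0.05, 3 epidermal markers were lower and 1 higher, the latter *cldni* at 114, 134 and 131 FPKM in wild-type and 182, 178 and 253 FPKM in mutant pools (log2 fold change 0.67, limma adjusted p = 0.0655), while *krt17* overlapped. No marker of any list was at 0 in all pools. The part of these differences in the values of the sarcomere genes was not tested.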

How the data were processed

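The authors trimmed reads (Trim Galore 0.4.2), aligned them to GRCz11 (STAR 2.5.3) and deposited FPKM values per gene and pool made with Cufflinks 2.2.1, per the submitters' processing notes. Deposited mean FPKM and the authors' own Cuffdiff comparison (fold changes, p-values) were not used. Column names give genotype and a number that matches no single labelled sample, so columns served as replicates of their genotype. Genes averaging 0.5 FPKM or more were fitted as log2(FPKM + 1) with limma 3.58.1 in R 4.3.3, with a mean-variance trend and Benjamini-Hochberg adjustment over all genes tested, threshold 0.05. The pseudocount understates changes of low genes. The fit was tested on simulated data. Coordinates are as deposited, whose start may count from 0.

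The genes and lists were chosen with earlier results of these data known. Named are genes that passed, the 6 largest rises and falls from 5 FPKM up, the most abundant gene per role, the 8 genes listed by symbol, titins and nebulin, and from each list up to 3 genes that passed, or the 2 of smallest p. Other names were chosen after seeing values. Alternatives were another pseudocount or filter, other scalings, no trend, a block and leaving out each pool. Pandas 2.3.3 and matplotlib 3.10.9 served for tables and figures. Sequences were not used here.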

Additional observations from a re-analysis of the deposited data

How the results depend on the processing

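The number of sarcomere genes called depended on the filter and the variance model. Without a filter on low values or without the mean-variance trend, no gene was called higher (0, against 1) or lower (0, against 2), where among all genes 1 was higher and 5 lower without a filter, and 24 and 14 without the trend. Leaving out 1 pool in turn gave 0 to 1 higher and 0 to 3 lower, and a median log2 fold change of −0.128 to 0.0528, the lowest of them without wild-type pool 2. A pseudocount of 0.1, a 5 FPKM filter, scaling by quantiles or by medians, and scaling to genes outside the set or, chosen after seeing the data, to the set itself gave 1 higher and 2 lower, of which at the 5 FPKM filter *myl4* took the place of *ppp1r27b*, which that filter leaves out. Columns of the same number did not deviate together over genes of at least 5 FPKM (correlations of 0.0346, 0.00262 and 0.0753). Over these genes as a whole this gave no sign of a pairing. For the fast skeletal genes, the median distance from the genotype mean was −0.0547, 0.187 and −0.154 in wild-type pools 0, 1 and 2. In mutant pools it was −0.0553, 0.0974 and −0.0234, with the same sign at each number. Over the 64 sarcomere genes of that level, the sign differed at number 2 (−0.131 and 0.0141). The labels do not name the parents, so whether pools were paired is not known. With the number as a replicate block 1 gene was higher and 2 lower, and 273 and 80 over the whole table against 152 and 47.

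Signs turned only for genes close to no change: *mylpfa* with quantile normalization (0.0301), *actn3a* without wild-type pool 1 (0.0413, and −0.172 without wild-type pool 2), and *ldb3a* when scaled to genes outside the set (0.0246) or to the set (0.0132), or without wild-type pool 0 (0.0336), wild-type pool 1 (0.0528) or mutant pool 2 (0.0617), against −0.116 without wild-type pool 2. Over 20 named genes, 272 of 299 comparisons with an alternative kept sign and side of the threshold, 18 lost and 2 gained a call, and 7 changed sign. Their causes were not tested. The unknown absolute depth limits the low genes.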
